A study of Mus musculus with 16 samples.

Results

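The genes described here are 38 genes of the unfolded protein response and of protein folding in the endoplasmic reticulum (ER), taken by symbol from a count table of 49315 gene identifiers. All 38 were found in the table, and all 38 passed the filter on low counts that left 15993 genes for testing. Murine tracheal epithelial cell cultures (MTECs), grown from pooled tracheas at an air-liquid interface, were made from male and female mice, either WT or LMAN1 knockout (KO). The mice were littermates from heterozygous breeding on the C57BL/6J background, and the knockout was carried in the germline rather than driven in a chosen cell type. Cultures were left untreated (naive) or received 20 µg/ml house dust mite (HDM) extract overnight. This gave 8 groups of 2 libraries: female WT naive, female WT HDM, female KO naive, female KO HDM, and the same 4 groups in males. Values below are given with replicate 1 first and replicate 2 second.

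Secreted and membrane proteins fold in the ER with the help of chaperones, lectins that hold glycoproteins, and enzymes that form disulfide bonds. When unfolded proteins accumulate, sensors in the ER membrane, IRE1 (encoded by Ern1), PERK (Eif2ak3) and ATF6, act through the transcription factors XBP1, ATF4 and cleaved ATF6 to raise folding capacity and the degradation of misfolded proteins. Airway epithelium also has IRE1β (Ern2), which is known from mucous cells. The product of Lman1 is a lectin that carries glycoproteins from the ER towards the Golgi. Splicing of Xbp1, phosphorylation in the PERK arm and cleavage of ATF6 are not seen in gene counts, so the values below are mRNA levels only.

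Promoter windows from 250 bases before to 50 bases after the RefSeq start site (GRCm38.p6) were held for 32 of the 38 genes, and were searched on both strands for the DNA elements known to bind these factors. The stretches below are shown because they hold the elements in genes whose levels are described further on; capitals mark the matched element, and all are written 5′ to 3′ on the strand of the gene. The ER stress response element (ERSE) was searched as CCAAT, any 9 bases and CCACG, and ERSE-II as ATTGG, any base and CCACG. The composite ATF4 element was searched as TGATGNAA. Hsp90b1 holds 2 ERSE copies in opposite orientations, and Herpud1 holds both an ATF4 element and an ERSE-II.
Hspa5 (chr2:34772013-34772055, plus strand): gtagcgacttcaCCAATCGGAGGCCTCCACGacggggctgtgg
Hsp90b1 (chr10:86705521-86705668, minus strand): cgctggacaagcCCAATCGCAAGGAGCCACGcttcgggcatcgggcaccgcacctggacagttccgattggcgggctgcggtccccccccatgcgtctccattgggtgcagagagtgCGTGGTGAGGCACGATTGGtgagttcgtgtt
Calr (chr8:84847063-84847105, minus strand): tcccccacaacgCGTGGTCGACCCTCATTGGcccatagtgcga
Pdia6 (chr12:17266479-17266521, plus strand): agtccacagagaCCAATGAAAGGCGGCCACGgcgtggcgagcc
Creld2 (chr15:88819508-88819550, plus strand): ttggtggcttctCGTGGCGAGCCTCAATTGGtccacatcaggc
Herpud1 (chr8:94386305-94386399, plus strand): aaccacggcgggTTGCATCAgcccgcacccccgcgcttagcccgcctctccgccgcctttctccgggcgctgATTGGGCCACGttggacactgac
Chac1 (chr2:119351037-119351068, plus strand): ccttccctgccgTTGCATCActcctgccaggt
Asns (chr6:7693213-7693244, minus strand): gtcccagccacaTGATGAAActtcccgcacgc

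With the base before the start site counted as -1, the printed stretch of Hspa5 runs from -77 to -35 and its ERSE from -65 to -47. The printed stretch of Calr runs from -174 to -132 and its ERSE from -162 to -144. An ERSE was present in 9 of the 32 windows (Calr, Canx, Creld2, Derl3, Dnajc3, Hsp90b1, Hspa5, Pdia6 and Syvn1) against 39 of all 32851 promoter windows (0.119%). ERSE-II was found in Dnajb11 and Herpud1, and in 12 of all windows. The ATF4 element was found in Asns, Chac1, Herpud1 and Trib3, 12.5% of the windows of these genes against 3.97% of all. The XBP1 element TGACGTGG (UPRE) was in 0 of the 32 windows and in 222 of all windows (0.676%), which says only that these letters are not in these windows. A match is a description of the sequence and not a measured binding site.

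Library totals were between 21860698 and 43442188 counts. Lman1, the gene targeted in the KO mice, stood at 123 and 123 CPM (counts of a gene scaled to the TMM-corrected library total) in female WT naive, 117 and 101 in female WT HDM, 109 and 136 in male WT naive and 111 and 144 in male WT HDM libraries, with a mean of 120.5 ± 14.3 (SD, n = 8). It was present at 12.8 and 12.8 CPM in the female labelled KO naive libraries, but at 66.6 and 78.1 in female labelled KO HDM, at 14.2 and 63.4 in male labelled KO naive and at 65 and 66 in male labelled KO HDM. Because 5 of the 8 KO libraries lay above 50% of the WT mean of this gene, they are called libraries labelled KO throughout. The 2 female labelled KO groups also differed from each other in Lman1, which was 5.66-fold higher after HDM (adjusted p = 0.00744, edgeR).

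Levels differed widely between the 38 genes. Per kilobase of exon, the highest median levels over the 16 libraries were those of Calr (293 CPM per kilobase), Pdia3 (229) and P4hb (226), which encode a lectin chaperone and a pair of disulfide isomerases. The lowest were Derl3, a degradation factor (0.206 CPM per kilobase), and Ern2 (0.517). Across the 16 libraries, 20 of the 38 genes had their highest level in a female WT HDM library and 7 had their lowest level there. The same count was not made over all tested genes, so these numbers have no share of all genes beside them. In the test of female WT HDM against naive described below, 20.6% of all tested genes were called higher and 22.4% lower. Summed over the 15 chaperones, lectins and isomerases, the level was 4316 and 4685 CPM in female WT naive libraries and 7320 and 7432 in female WT HDM. The sum was 4599 and 4875 in female labelled KO naive libraries and 5759 and 5170 in female labelled KO HDM, and the 8 male libraries held between 4389 and 5787. Both female WT HDM libraries therefore lay above the 14 others.

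**Figure D1:**
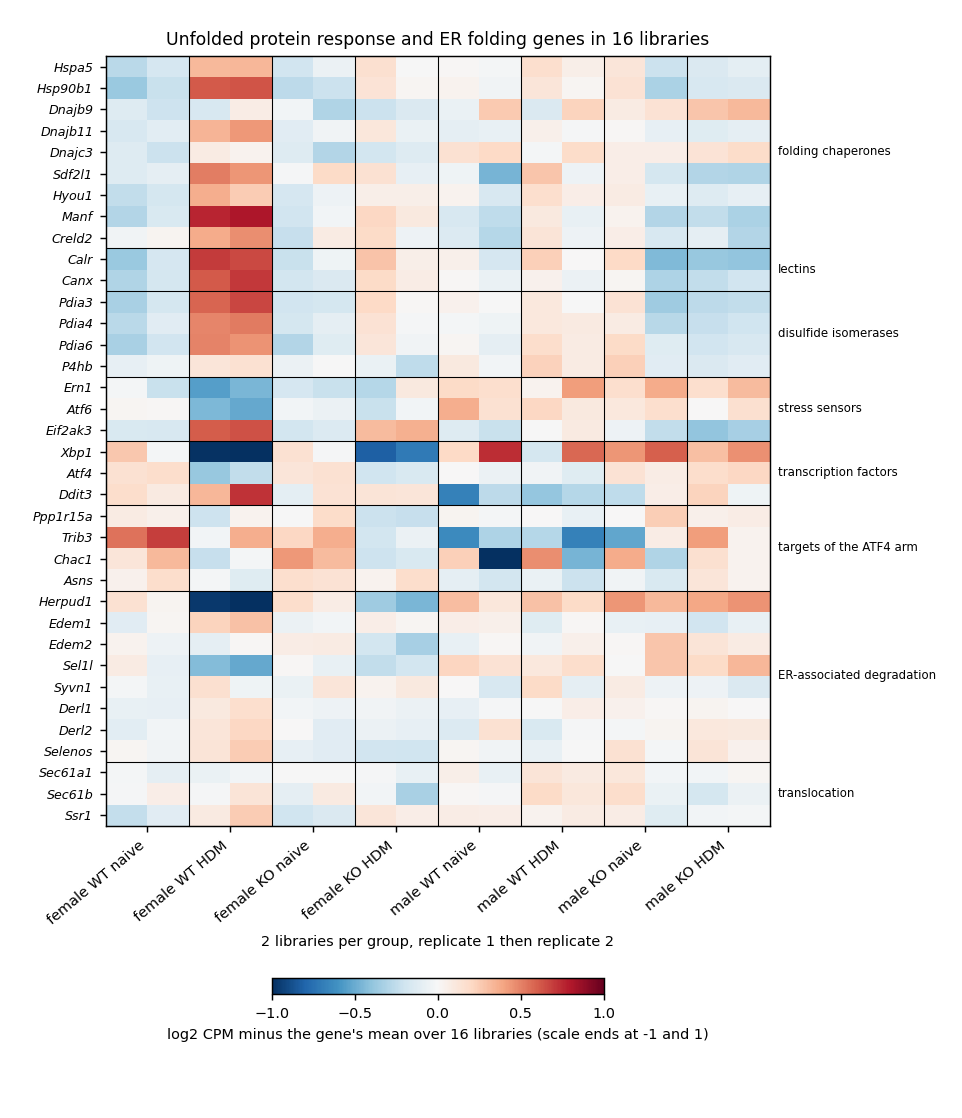
Heat map of log2 CPM minus each gene's mean over 16 libraries (colour, scale ends at -1 and 1), with genes in rows by role and both libraries of each group in columns. Ern2 and Derl3, the genes with the lowest levels, are not drawn. Xbp1 and Herpud1 are lowest in the 2 female WT HDM libraries. The folding genes are highest there, except P4hb, Dnajb9 and Dnajc3, which are highest in a male library.

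The first comparison asked how WT cultures of female mice responded to HDM. Of the 38 genes, 18 rose and 7 fell (edgeR's quasi-likelihood test, Benjamini-Hochberg adjusted p under 0.05 over all 15993 genes), where 43.1% of all tested genes were called, 20.6% higher and 22.4% lower. The median log2 fold change was 0.22 over the 38 genes and -0.02 over all tested genes. The genes that rose and those that fell were divided by role. Of the 15 folding genes, 8 of 9 chaperones and co-chaperones, both lectins and 3 of 4 disulfide isomerases rose and 0 fell. Of the 7 sensors and transcription factors, 1 rose and 5 fell.

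Hspa5 encodes BiP, the main ER chaperone of the HSP70 family and the protein that holds the sensors inactive. Its level was 525 and 566 in female WT naive, 792 and 799 in female WT HDM, 554 and 610.1 in female labelled KO naive and 710.3 and 632 in female labelled KO HDM libraries. Male libraries held 641 and 624 in male WT naive, 712 and 659.6 in male WT HDM, 690.2 and 547 in male labelled KO naive and 574 and 592 in male labelled KO HDM libraries. The 2 female WT HDM libraries were the highest of the 16, and Hspa5 rose 1.46-fold (log2 fold change 0.54 ± 0.11 (SE), adjusted p = 0.00205). Hsp90b1, which encodes the ER member of the HSP90 family, was measured at 452 and 502 in female WT naive, 897 and 906 in female WT HDM, 488 and 505 in female labelled KO naive and 644 and 595 in female labelled KO HDM libraries. In males it was 602 and 573 in male WT naive, 638 and 595 in male WT HDM, 649.7 and 471 in male labelled KO naive and 525 and 530.2 in male labelled KO HDM libraries. Again no other library reached the female WT HDM pair, and the log2 fold change was 0.92 ± 0.12 (SE) (adjusted p = 0.000154).

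Manf, a secreted ER stress-induced protein that binds BiP, had the largest rise of the 38 genes. It stood at 84.9 and 93.5 in female WT naive, 177 and 182 in female WT HDM, 91.4 and 102 in female labelled KO naive and 120.3 and 111 in female labelled KO HDM libraries. In the male groups Manf was 93 and 87.2 in male WT naive, 111 and 98.8 in male WT HDM, 107 and 85.2 in male labelled KO naive and 87.8 and 83.5 in male labelled KO HDM libraries. The female WT response was 2.01-fold (log2 fold change 1.01 ± 0.11 (SE), adjusted p = 2.75e-05), and the female labelled KO HDM libraries lay between the female naive and the female WT HDM libraries. The co-chaperones Dnajb11, Sdf2l1 and Hyou1 rose by log2 0.52, 0.58 and 0.52, Creld2 by 0.42, and Dnajc3, the PERK inhibitor p58IPK, by 0.23. Dnajb9, a co-chaperone that represses IRE1, was the one member of this group that did not pass (log2 fold change 0.13 ± 0.14 (SE), adjusted p = 0.494).

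The lectins calreticulin (Calr) and calnexin (Canx) bind glycoproteins that carry a trimmed sugar and keep them in the ER until they fold. Calr was 659 and 762 in female WT naive, 1385 and 1350 in female WT HDM, 733 and 830.3 in female labelled KO naive and 1039 and 889 in female labelled KO HDM libraries. The male values were 883 and 761 in male WT naive, 1010 and 856 in male WT HDM, 982 and 631 in male labelled KO naive and 658 and 652 in male labelled KO HDM libraries. Canx was 447 and 488 in female WT naive, 843 and 897 in female WT HDM, 486 and 497 in female labelled KO naive and 628 and 580.1 in female labelled KO HDM libraries. Its male values were 556 and 526 in male WT naive, 567 and 529 in male WT HDM, 557 and 445 in male labelled KO naive and 465 and 482 in male labelled KO HDM libraries, so for both lectins the 2 female WT HDM libraries stood above the other 14. The log2 fold changes in female WT cultures were 0.94 ± 0.18 (SE) for Calr and 0.90 ± 0.10 (SE) for Canx (adjusted p = 0.00145 and 5.02e-05).

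Among the disulfide isomerases, Pdia3, the partner of the lectins, was 572 and 635 in female WT naive, 1073 and 1141 in female WT HDM, 628 and 636 in female labelled KO naive and 824 and 722 in female labelled KO HDM libraries. In males Pdia3 was 739.8 and 717 in male WT naive, 771 and 717 in male WT HDM, 796 and 560 in male labelled KO naive and 598 and 605 in male labelled KO HDM libraries. Pdia3 rose 1.83-fold in female WT cultures (adjusted p = 0.000406), Pdia4 1.61-fold and Pdia6 1.66-fold. P4hb, the founding isomerase of the family, did not pass the test, with a log2 fold change of 0.20 ± 0.11 (SE) (95% interval -0.04 to 0.44, adjusted p = 0.171).

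**Figure D2:**
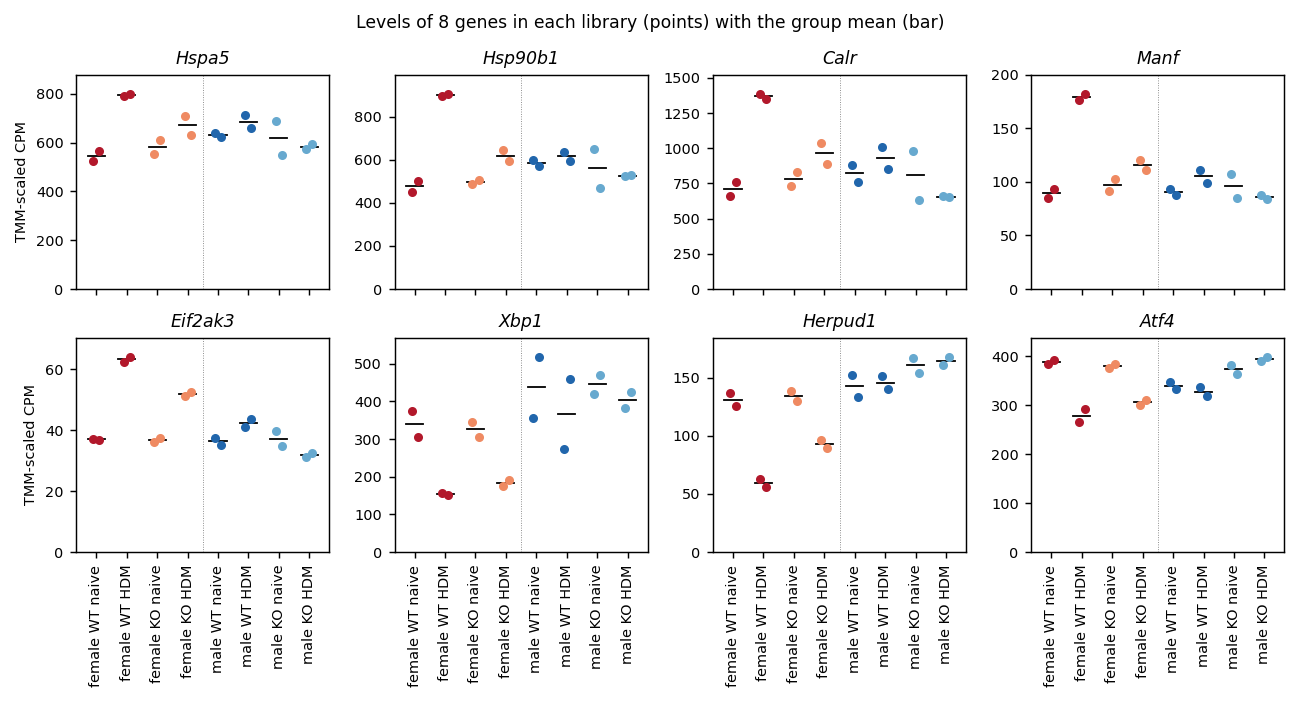
TMM-scaled CPM (vertical axis, from 0) of 8 genes in each library (points) and the mean of each group of 2 (bar), with females left of the dotted line. Hspa5, Hsp90b1, Calr, Manf and Eif2ak3 are highest in female WT HDM libraries, and Xbp1, Herpud1 and Atf4 are lowest there.

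The sensors did not move together in female WT cultures. Eif2ak3, the gene of PERK, was 37 and 36.8 in female WT naive, 62.5 and 63.9 in female WT HDM, 36.2 and 37.5 in female labelled KO naive and 51.1 and 52.6 in female labelled KO HDM libraries. Its male levels were 37.5 and 35.2 in male WT naive, 40.9 and 43.8 in male WT HDM, 39.6 and 34.6 in male labelled KO naive and 31.2 and 32.5 in male labelled KO HDM libraries. All 4 female HDM libraries lay above every other library, and the female WT response was log2 0.78 ± 0.07 (SE) (adjusted p = 1.45e-05). Ern1, the gene of IRE1α, was 71.4 and 62.2 in female WT naive, 49.6 and 52.8 in female WT HDM, 64.6 and 62.2 in female labelled KO naive and 59.5 and 77.5 in female labelled KO HDM libraries. In males it was 82.8 and 81.6 in male WT naive, 74.3 and 97 in male WT HDM, 81.4 and 93.7 in male labelled KO naive and 81.3 and 90.2 in male labelled KO HDM libraries. Ern1 fell by 0.38 on the log2 scale (adjusted p = 0.0473), a call that was lost under 5 of 9 alternatives, and Atf6 fell by 0.50 (adjusted p = 0.000856).

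Ern2 was close to the limit of detection. Its levels were 1.89 and 1.89 in female WT naive, 0.167 and 0 in female WT HDM, 1.82 and 2.01 in female labelled KO naive and 0.646 and 0.716 in female labelled KO HDM libraries. Male levels were 4.61 and 0.707 in male WT naive, 4.41 and 1.11 in male WT HDM, 3.86 and 1.31 in male labelled KO naive and 1.28 and 1.75 in male labelled KO HDM libraries. The female WT naive libraries held 52 and 84 Ern2 reads and the female WT HDM libraries 4 and 0, a ratio of 22.5-fold lower after HDM (exact 95% interval 8.6 to 83.9, counting error only). Ern2 fell in female WT cultures (adjusted p = 0.0137), and its call was lost under 1 of 9 alternatives.

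The transcription factors fell or did not pass. Xbp1, which IRE1 splices, was 374 and 305 in female WT naive, 156 and 152 in female WT HDM, 344 and 307 in female labelled KO naive and 176 and 190 in female labelled KO HDM libraries. In males it was 356 and 518 in male WT naive, 274 and 461 in male WT HDM, 421 and 469.9 in male labelled KO naive and 382 and 425 in male labelled KO HDM libraries. All 4 female HDM libraries held less Xbp1 than any of the 12 others, and in female WT cultures Xbp1 fell by 1.14 on the log2 scale (SE 0.22, adjusted p = 0.00162). Atf4, the factor of the PERK arm, was 385 and 392 in female WT naive, 266 and 291 in female WT HDM, 377 and 385 in female labelled KO naive and 301 and 311 in female labelled KO HDM libraries. The male libraries were at 347 and 332 in male WT naive, 338 and 318 in male WT HDM, 383 and 364 in male labelled KO naive and 390.3 and 399 in male labelled KO HDM libraries. Atf4 fell by 0.48 on the log2 scale in female WT cultures (adjusted p = 0.000232). Ddit3, which encodes CHOP, a factor linked to cell death under ER stress, was 23.4 and 22.1 in female WT naive, 26.1 and 34.3 in female WT HDM, 19.5 and 23 in female labelled KO naive and 22.7 and 22.6 in female labelled KO HDM libraries. Its male levels were 13 and 17.4 in male WT naive, 15.9 and 17 in male WT HDM, 17.4 and 21.8 in male labelled KO naive and 24.2 and 20.2 in male labelled KO HDM libraries. The 2 highest Ddit3 values of the 16 were those of the female WT HDM libraries, but the difference from naive did not pass (log2 fold change 0.41 ± 0.17 (SE), adjusted p = 0.0722). Ddit3 was called with no filter on low counts and without female WT HDM replicate 1. Ddit3 shares 68 exonic bases (3.97% of its exons) with Mars on the opposite strand, and as the strand setting of the counting is not given in the sources used here, reads there cannot be assigned to one of the genes. The same holds for Manf, which shares 146 bases (4.14%) with Dcaf1 and 166 (4.71%) with 4930524O07Rik, for Derl2, which shares 231 (2.87%) with Mis12, and for Syvn1, which shares 91 (1.87%) with Mrpl49. The opposite-strand partners of other members, Hsp90b1 and Eif2ak3 among them, held at most 2240 counts over all libraries.

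The 4 targets of the ATF4 arm gave 0 calls in female WT cultures (edgeR, and 0 with DESeq2; 1, Asns, had an unadjusted p under 0.05), but Trib3 was called with no filter on low counts. Their log2 fold changes were -0.15 for Ppp1r15a, which encodes the phosphatase subunit that ends the PERK signal, -0.44 for the pseudokinase Trib3, -0.35 for Chac1, which degrades glutathione, and -0.18 for asparagine synthetase. Among the 9 genes of ER-associated degradation, 3 rose and 2 fell. Herpud1, a membrane protein of the degradation complex, was 137 and 126 in female WT naive, 62.9 and 55.5 in female WT HDM, 139 and 129.7 in female labelled KO naive and 96.2 and 89.5 in female labelled KO HDM libraries. In males it was 152 and 133 in male WT naive, 151 and 140.5 in male WT HDM, 167 and 154 in male labelled KO naive and 161 and 168 in male labelled KO HDM libraries. The 4 female HDM libraries lay below every other library, and Herpud1 fell by 1.15 on the log2 scale in female WT cultures (SE 0.09, adjusted p = 3.62e-06). Sel1l, the adaptor of the ubiquitin ligase HRD1, fell by 0.47, whereas HRD1 itself (Syvn1) had a log2 fold change of 0.11 and did not pass. Edem1, which directs misfolded glycoproteins to degradation, rose by 0.30, and Derl1 and Selenos, which take part in moving proteins out of the ER, rose by 0.21 and 0.20, although these 2 calls were each lost under 5 of 9 alternatives. Derl3 was read at 0.363 and 0.427 in female WT naive, 0.832 and 0.284 in female WT HDM, 0.256 and 0.372 in female labelled KO naive and 0.444 and 0.394 in female labelled KO HDM libraries, close to the floor of 3 counts per library.

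Of the 3 genes of the translocation channel and its partners, Ssr1, a subunit of the translocon-associated protein complex, rose by 0.35 on the log2 scale (adjusted p = 0.004). The channel subunits Sec61a1 and Sec61b had log2 fold changes of 0.01 (95% interval -0.15 to 0.16) and 0.03 (-0.21 to 0.28). Of the 9 genes with an ERSE in the promoter window, 7 rose, 0 fell and 2, Derl3 and Syvn1, did not pass, with a median log2 fold change of 0.54. Of all tested genes, 20.6% rose and 22.4% fell. The 7 are all folding genes, and folding genes outside the 9 rose as well: Pdia3, Pdia4, Dnajb11, Sdf2l1, Hyou1 and Manf. P4hb and Dnajb9, also outside the 9, did not pass. A link between the element and the rise was not tested. Of the 4 genes with an ATF4 element, Herpud1 fell and the other 3 did not pass. In all, 16 of the 25 calls held under all 9 alternatives. These were Hspa5, Hsp90b1, Calr, Canx, Pdia3, Pdia4, Pdia6, Dnajb11, Hyou1, Manf and Eif2ak3 among those that rose, and Xbp1, Atf4, Atf6, Herpud1 and Sel1l among those that fell.

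Markers of airway cell types moved in the same libraries. The summed level of 4 club cell markers was 13060 to 17260 CPM in female WT naive libraries and 3762 to 4653 in female WT HDM, and all 4 fell. The 5 goblet cell markers summed to 63.7 to 93.8 CPM and to 2.23 to 2.25, where all 4 that were tested fell and Tff2 was at 0 in both HDM libraries. Basal cell markers summed to 5851 to 7151 CPM and to 1874 to 3798, and 4 of 5 fell. In female labelled KO cultures the club sum was 13120 to 15830 CPM when naive and 7208 to 7867 after HDM. The goblet sum there was 40.6 to 70.3 and 3.67 to 5.48, with 3 of the 4 tested markers lower. The basal sum was 6388 to 7389 and 8317 to 9793, but its markers were divided. Krt14 was 1876 and 2143 CPM when naive and 3599 and 3245 after HDM. Dapl1 was 15.8 and 15.6 and then 5.97 and 5.01, and Ngfr was 111.5 and 106.5 and then 103.5 and 92.9. The libraries overlapped for Krt5 and Trp63. The part of these shifts in the folding gene results was not tested, and in bulk samples fewer cells of a type and less RNA per cell cannot be told apart.

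The 6 fibroblast markers, which would mark the other cells of the trachea or of the culture, summed to 25.9 and 525 CPM in the 2 female WT naive libraries and to 47.5 and 577 in the 2 female WT HDM libraries. In female WT cultures 2 of the 6 rose after HDM, Dcn by 3.39 and Lum by 4.60 on the log2 scale. Both rises rested mainly on female WT HDM replicate 2. Dcn was 2 and 2.56 CPM in female WT naive and 2.25 and 45.9 in female WT HDM libraries, and Lum was 0.254 and 0.877 and then 1.04 and 28. The median log2 fold change of the 6 was 1.75. The 5 immune markers summed to 30.6 to 68.3 CPM over all libraries, with Cd3e at 0 in both libraries of 7 of the 8 groups. The 3 endothelial markers summed to at most 1.85 CPM. The 5 ciliated cell markers summed to 93.2 to 124 CPM in female WT naive and to 86.5 to 93.3 in female WT HDM libraries, where Foxj1 alone held 79.1 and 86.6. Behind this sum 3 of the 5 fell in female WT cultures, Ccdc153 by 4.22 and Rsph1 by 1.96 on the log2 scale and Tekt1 to a level near the floor of 3 counts per library, with log2 fold changes of 0.06 for Foxj1 and -0.99 for Dnah5. Tekt1 was 2.73 and 4.34 CPM in female WT naive and 0.0832 and 0.0947 in female WT HDM libraries. In female labelled KO cultures the ciliated sum was 111 to 126 CPM when naive and 52.3 to 59 after HDM. By the test 1 of the 5 was called lower, but each of the 5 was lower in both HDM libraries than in both naive libraries. Foxj1, for example, was 76.7 and 90.3 CPM when naive and 44.8 and 47 after HDM. The part of the fibroblast and ciliated markers in the folding gene results was not tested.

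**Figure D3:**
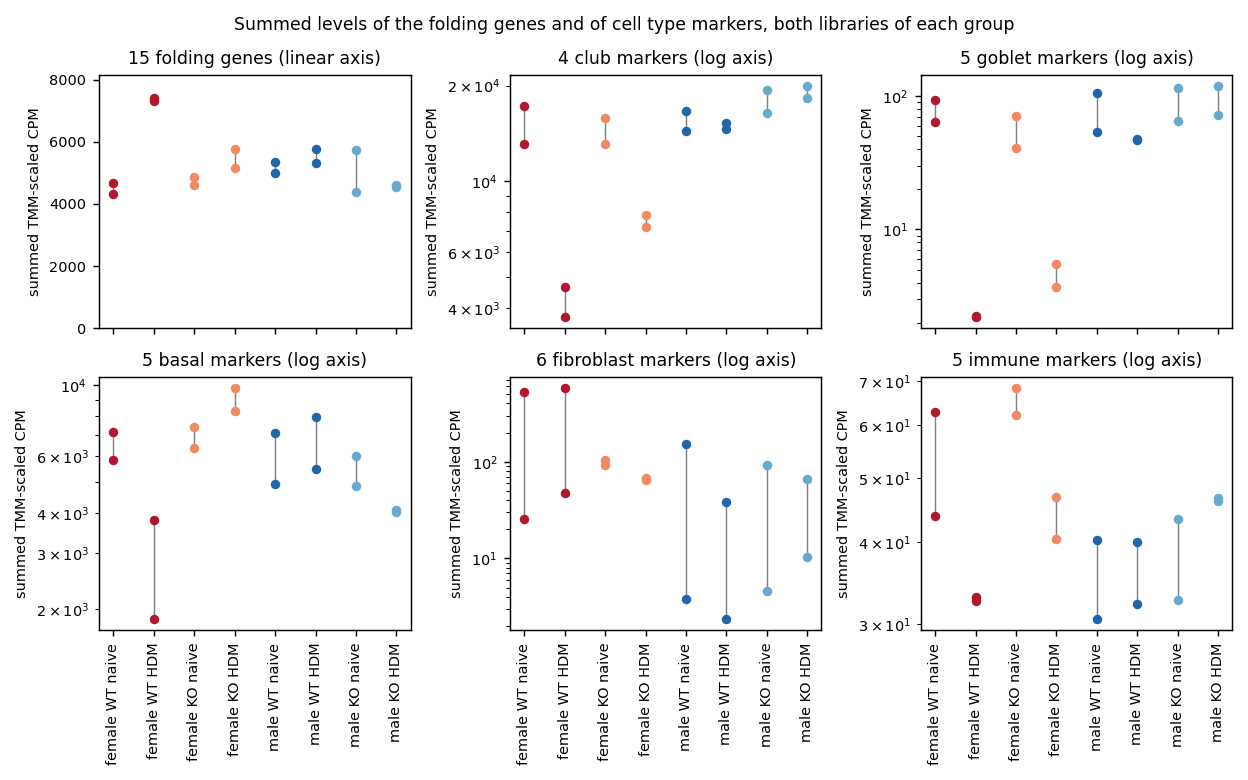
Summed TMM-scaled CPM of the 15 folding genes (linear axis from 0) and of 5 marker lists (log axes), with a point for each library and a line between the 2 libraries of a group. The folding sum is 7320 and 7432 in female WT HDM, where the club and goblet sums are lowest.

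The second comparison asked how female cultures labelled KO responded to HDM. Of the 38 genes, 1 rose and 4 fell, where 10.4% of all tested genes were called, 4.63% higher and 5.77% lower, and the median log2 fold change was 0.02. Eif2ak3 rose by 0.49 (adjusted p = 0.00251), and Xbp1, Herpud1, Edem2 and Atf4 fell by 0.83, 0.53, 0.33 and 0.32 on the log2 scale. Edem2, a mannosidase-like protein of the degradation pathway, was 58.8 and 55.5 in female WT naive, 53.9 and 58 in female WT HDM, 60.4 and 60.8 in female labelled KO naive and 50.7 and 45.5 in female labelled KO HDM libraries. In males Edem2 was 54.6 and 57.8 in male WT naive, 56.1 and 59.4 in male WT HDM, 57.9 and 69.6 in male labelled KO naive and 62.8 and 60.8 in male labelled KO HDM libraries. Its lowest values were those of the 2 female labelled KO HDM libraries. Leaving out female labelled KO naive replicate 1 or female labelled KO HDM replicate 2 left 1 call, Eif2ak3, and leaving out female labelled KO naive replicate 2 or female labelled KO HDM replicate 1 left 2, Eif2ak3 and Herpud1.

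Of the 15 folding genes, 0 passed in female labelled KO cultures (edgeR); 4 had an unadjusted p under 0.05, and DESeq2 called 1, Canx. The log2 fold changes were 0.20 for Hspa5 (95% interval -0.04 to 0.44), 0.32 for Hsp90b1 (0.05 to 0.59), 0.30 for Calr (-0.09 to 0.69) and 0.26 for Manf (0.03 to 0.49). The difference between the female responses was tested itself, as an interaction of HDM and labelled genotype. It was called for 6 of the 38 genes, where 11.2% of all tested genes were called. Lman1, which is not among the 38, was called in it too, at 2.67 in log2 units (adjusted p = 0.0238, edgeR). Its level was 12.8 and 12.8 CPM in female labelled KO naive libraries and 66.6 and 78.1 in female labelled KO HDM. The labelled KO response minus the WT response, in log2 units, was -0.75 for Manf (adjusted p = 0.0116), -0.60 for Canx (adjusted p = 0.0261), -0.60 for Hsp90b1 (adjusted p = 0.0495) and -0.42 for Dnajb11 (adjusted p = 0.0244). It was 0.61 for Herpud1 (adjusted p = 0.0135) and 0.42 for Atf6 (adjusted p = 0.0496). None of these 6 calls held under all 13 alternatives. The count was 14 with DESeq2, 0 without female WT naive replicate 1 or without female labelled KO naive replicate 2, 1 without female WT HDM replicate 2 or without female labelled KO HDM replicate 2, and 3 without female WT naive replicate 2 or without female labelled KO naive replicate 1.

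In male cultures 0 of the 38 genes were called after HDM in either genotype label (edgeR; DESeq2 also called 0), and 0% of all tested genes were called. At an unadjusted p under 0.05 there were 2 such genes in male WT cultures, Sdf2l1 (log2 fold change 0.36) and Eif2ak3 (0.22), and 1 in male labelled KO cultures, Eif2ak3 at -0.22. The medians were 0.07 and -0.07. For male WT cultures the 95% intervals of the log2 fold change were -0.12 to 0.36 for Hspa5, -0.20 to 0.34 for Hsp90b1, -0.21 to 0.24 for Canx and -0.17 to 0.23 for Herpud1.

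The difference between the responses of male and female WT cultures was called for 15 of the 38 genes, where 24.2% of all tested genes were called. All 15 were also called in the female WT response, which enters this difference. The male response minus the female response, in log2 units, was -0.88 for Canx (adjusted p = 0.00158), -0.85 for Hsp90b1 (adjusted p = 0.00521), -0.84 for Pdia3, -0.79 for Manf and -0.56 for Eif2ak3. It was positive at 1.18 for Herpud1 (adjusted p = 0.000102), 0.43 for Atf4, 0.43 for Sel1l and 0.39 for Atf6. For Hspa5 the difference was -0.43 and did not pass (adjusted p = 0.065). Without female WT naive replicate 1 there were 7 calls: Hsp90b1, Canx, Pdia3, Manf, Atf4, Eif2ak3 and Herpud1. This interaction and that of HDM and labelled genotype share the 4 female WT libraries, so they are not separate evidence.

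**Figure D4:**
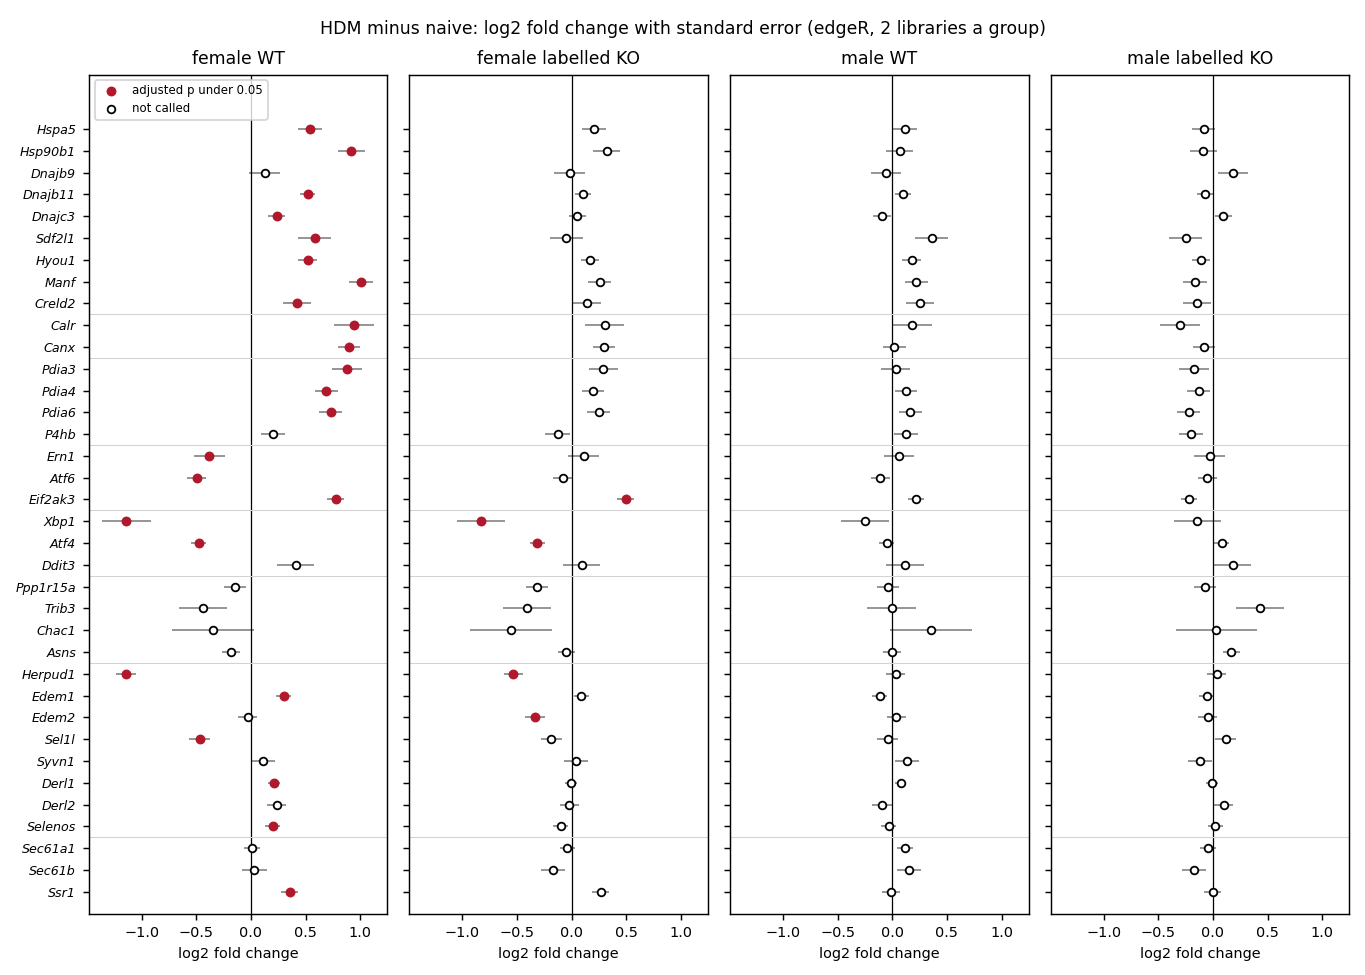
Log2 fold change of HDM against naive (horizontal axis) with its standard error for 36 genes in rows by role, in 4 panels for female WT, female labelled KO, male WT and male labelled KO. Filled points are called at an adjusted p under 0.05: 24 in female WT, 5 in female labelled KO and 0 in either male panel, with Ern2 and Derl3 not drawn.

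The third question was whether libraries labelled KO differed from WT. In naive cultures 0 of the 38 genes were called in either sex (edgeR and DESeq2 alike; 0 at an unadjusted p under 0.05), and 0% of all tested genes were called. The medians were 0.03 in females and 0.05 in males. In naive females, where Lman1 was at 0.104 of its WT level (adjusted p = 0.403 by edgeR and 9.22e-06 by DESeq2), the log2 differences were 0.09 for Hspa5 (95% interval -0.15 to 0.33), 0.07 for Canx (-0.15 to 0.30), -0.06 for Xbp1 (-0.54 to 0.41) and 0.03 for Herpud1 (-0.16 to 0.23). In naive males Lman1 was at 0.319 of its WT level (adjusted p = 0.879 by edgeR). The 2 male labelled KO naive libraries stood at 11.8% and 52.6% of the mean of all WT libraries. Among the 38 genes Ddit3 had the largest difference in naive males, 0.37 (-0.01 to 0.75).

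After HDM, female libraries labelled KO differed from WT in 16 of the 38 genes, 3 higher and 13 lower, where 29.2% of all tested genes were called, 14.9% higher and 14.3% lower. The median log2 difference was -0.24 over the 38 genes and 0.00 over all tested genes. Lower in the labelled KO libraries were 5 chaperones and co-chaperones, Canx, 3 isomerases, Eif2ak3 and 3 degradation genes. Manf was 0.645 of its WT level (log2 difference -0.63 ± 0.11 (SE), adjusted p = 0.00157), Hsp90b1 0.687, Canx 0.694 and Pdia3 0.698. Calr, at a log2 difference of -0.50 (adjusted p = 0.0535), and Hspa5, at -0.25 (0.113), did not pass. Higher were Herpud1 (0.65 ± 0.09 (SE), adjusted p = 0.000592), Ern1 (0.42) and Atf6 (0.36). The Ern1 call was lost with upper-quartile scaling and with only the compared libraries. Those of Hyou1, Edem1 and Sdf2l1 were lost with a replicate block. DESeq2 called 22 of the 38 genes, Calr among them.

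All 16 of these genes were also called in the HDM response of female WT cultures, each in the opposite direction, and both comparisons use the 2 female WT HDM libraries. The Lman1 difference between these female groups did not pass the test (log2 difference -0.59, 95% interval -1.55 to 0.36, adjusted p = 0.331 by edgeR). It did not pass with DESeq2 either (adjusted p = 0.409). It passed in edgeR with only the compared libraries (adjusted p = 0.0171) and with no filter on low counts (5.15e-07). The edgeR fit with no filter also gave adjusted p = 6.83e-176 for Lman1 in naive females and 7.94e-51 in naive males. The male labelled KO naive libraries held 14.2 and 63.4 CPM. Such values from 2 libraries per group are not taken as a measure of the evidence. Lman1 was 66.6 and 78.1 CPM in the labelled KO libraries and 117 and 101 in the WT libraries. All 4 club markers and 4 of 5 basal markers were higher in the same labelled KO libraries, and 3 of 6 fibroblast markers were lower; their part in the result was not tested. Without female WT HDM replicate 2, and likewise without female labelled KO HDM replicate 2, there were 5 calls, and these were Canx, Dnajb11, Manf, Herpud1 and Selenos in both cases.

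After HDM in males, 0 of the 38 genes were called between labelled KO and WT (edgeR, 0% of all tested genes), but 14 had an unadjusted p under 0.05, as did 2897 of all 15993 genes. DESeq2 called 2 of the 38, Atf4 and Eif2ak3. Eif2ak3 had a log2 difference of -0.41 ± 0.07 (SE) (adjusted p = 0.159), Calr -0.51 ± 0.18 (SE) and Trib3 0.71 ± 0.22 (SE). The male labelled KO HDM libraries held 658 and 652 CPM of Calr, and the male WT HDM libraries 1010 and 856. With no filter on low counts the count was 7: Calr, Pdia4, Pdia6, Sdf2l1, Manf, Eif2ak3 and Trib3.

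**Figure D5:**
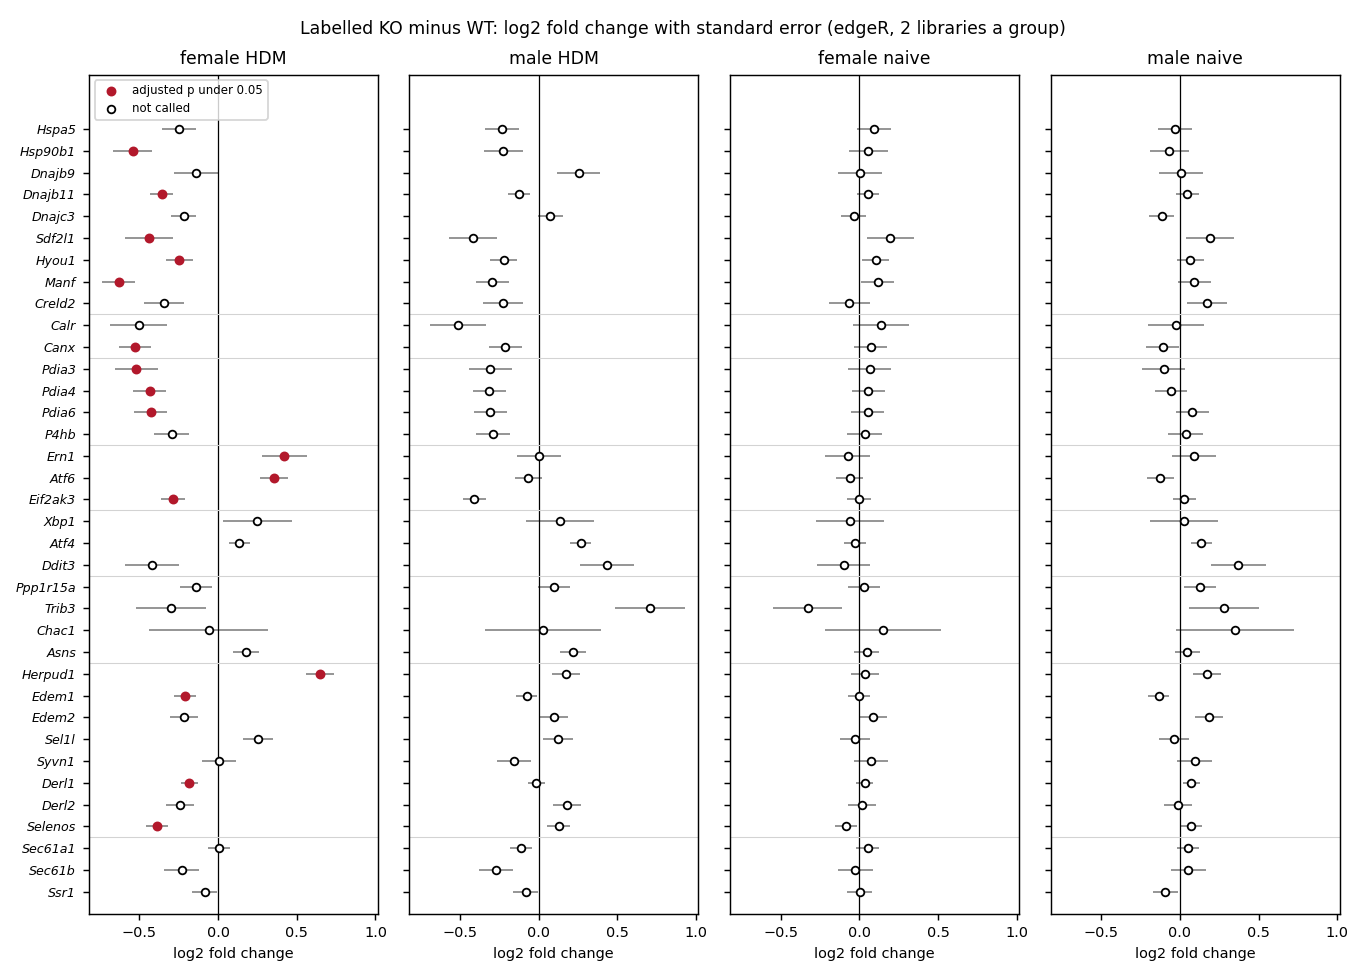
Log2 difference of labelled KO against WT (horizontal axis) with its standard error for 36 genes in rows by role, in 4 panels for female HDM, male HDM, female naive and male naive. Filled points are called at an adjusted p under 0.05: 16 in female HDM and 0 in the other panels, with Ern2 and Derl3 not drawn.

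Male and female libraries were compared last, within each label and treatment. In naive cultures 0 of the 38 genes were called in WT (edgeR, with 0.1% of all tested genes called) and 0 in labelled KO (0.188% of all), with 8 and 6 at an unadjusted p under 0.05. The share of all tested genes at that unadjusted threshold is not given here, so the 8 and 6 are not read as a result. DESeq2 called 2 in WT, Trib3 and Dnajc3, and 0 in labelled KO. Trib3 was 7.62 and 9.56 CPM in male WT naive and 17.3 and 19.2 in female WT naive libraries (log2 male minus female -1.09 ± 0.22 (SE), adjusted p = 0.153 by edgeR).

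After HDM, 22 of the 38 genes differed between the sexes in WT cultures, 7 higher and 15 lower in males, where 41.6% of all tested genes were called, 21.3% higher and 20.3% lower. Herpud1 was higher in males by 1.30 on the log2 scale (adjusted p = 1.67e-06), Xbp1 by 1.25 and Ern1 by 0.74. Lower in males were Ddit3, with a log2 male minus female difference of -0.88 (adjusted p = 0.00189), Manf with -0.77 and Canx with -0.67. Without female WT HDM replicate 2 the count was 14. In labelled KO cultures 12 of the 38 genes differed after HDM, 8 higher and 4 lower in males, where 25.3% of all tested genes were called, 12.9% higher and 12.4% lower. Xbp1 and Herpud1 were higher in males by 1.14 and 0.82 on the log2 scale, and the difference of Eif2ak3 was -0.70 (adjusted p = 0.000134). That count was 6 without male labelled KO HDM replicate 1, 5 without replicate 2 of the same group and 6 without female labelled KO HDM replicate 1, and Xbp1, Atf4, Eif2ak3 and Herpud1 were called each time.

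A wider list of 125 other genes of the same machinery, of which 123 were tested, was set beside the 38. In the HDM response of female WT cultures, 42 rose and 21 fell, where 20.6% of all tested genes were higher and 22.4% lower, with a median log2 fold change of 0.13. In N-glycan processing 10 of 19 rose and 1 fell, in the translocon and signal peptidase 9 of 16 rose and 0 fell, and in further degradation genes 10 of 19 rose and 3 fell. Mlec, a lectin that binds newly made glycoproteins, rose by 0.75, the glucosidase subunit Prkcsh by 0.56 and the oligosaccharyltransferase subunit Stt3a by 0.44. Spcs1 and Sec11a of the signal peptidase rose by 0.42 and 0.40, Srprb of the signal recognition particle receptor by 0.29 and Nploc4, a cofactor of the extraction ATPase, by 0.29. The deglycosylating enzyme Ngly1 fell by 0.77 and Sel1l3 by 0.59.

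Other folding and oxidation genes were divided, with 7 of 22 higher and 4 lower. Agr2, the isomerase needed for mucin folding, was 76.5 and 78.8 in female WT naive, 1.5 and 1.85 in female WT HDM, 81.7 and 76.8 in female labelled KO naive and 8.88 and 8.2 in female labelled KO HDM libraries, and it fell by 5.54 on the log2 scale in female WT cultures (adjusted p = 2.81e-07). The sulfhydryl oxidase Qsox1 fell by 2.24, and Creld1, the paralog of Creld2, rose by 0.83. Among further sensors and transcription factors 4 of 19 rose and 6 fell: Mbtps1, the protease that cleaves ATF6, rose by 0.62 and Creb3 by 0.64, and Spdef, the factor of mucous cells that is also on the goblet marker list, fell by 4.29. Of 28 further ATF4 targets 2 rose and 7 fell, and Stc2 fell by 2.39, Cbs fell by 1.65 and Nupr1 fell by 1.04 on the log2 scale. Levels of others on this list went the other way. Gdf15 was 21.2 and 27.2 CPM in female WT naive and 130 and 154.8 in female WT HDM libraries. Phgdh was 126.8 and 144.3 and then 216.6 and 214.4. In female labelled KO cultures 2 of the 123 genes rose, Vldlr and the targeted gene Lman1, which is on this list, and 9 fell, where 4.63% of all tested genes were higher and 5.77% lower. In male WT cultures 0 were called (edgeR; 8 had an unadjusted p under 0.05). Between labelled KO and WT females after HDM, 9 were higher and 41 lower, where 14.9% of all tested genes were higher and 14.3% lower.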

How the data were processed

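RNA of 16 MTEC cultures was sequenced. Raw counts, 1 column for each of 16 libraries and 1 row for each Ensembl identifier, were deposited by the authors; the submitters' processing notes name Trimmomatic 0.36, STAR 2.5.2b, featureCounts of Subread 1.5.2, DESeq2 and the build GRCm38, and the strand setting of the counting is not given in the sources used here. Identifiers were named with GENCODE M21 (49056 of 49315 matched). Groups came from the sample titles, and the label marks 2 biological replicates per group without saying whether cultures came from separate animals, so p-values measure the spread between these cultures. Replicate pairs were not equally close. The mean chi-square per gene between the 2 libraries of a group, against counting error, was 4.62 in male labelled KO HDM. It was 45.28 in male labelled KO naive and between 11.93 and 45.55 in the other groups. The male labelled KO comparisons therefore rest on pairs of unlike spread.

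Counts were filtered (filterByExpr), scaled by TMM and tested with edgeR 4.0.16 (quasi-likelihood test) in R 4.3.3, in 1 fit over the 8 groups with 14 contrasts; p-values were adjusted by Benjamini-Hochberg over 15993 genes and called at 0.05. The common biological coefficient of variation was 14.2%. CPM are TMM-scaled. The scripts were tested on simulated counts. Alternatives were DESeq2 1.42.0, upper-quartile scaling, no filter, a fit of the compared libraries only, a replicate block and leaving out each library.

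The 38 genes, the wider list and the markers were chosen with earlier results of these data known. Values in every library are given for Lman1, Hspa5, Xbp1, Ddit3, Ern1, Ern2 and the 5 called genes with the largest change in each HDM or KO comparison; from each of the 6 groups of the wider list, the 3 genes with the smallest p in the female WT response are named, and Trib3 and further genes were chosen after their values were seen. Depth limits Ern2 and Derl3. Intervals of read ratios cover counting error only. Promoter windows are from RefSeq.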

Additional observations from a re-analysis of the deposited data

Results flagged for a closer look

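The response of WT cultures to HDM differed between the sexes, by a test of the difference itself, for 15 of the 38 genes, where 24.2% of all tested genes were called, and for 7 without female WT naive replicate 1. In log2 units, as male response minus female response, the values were -0.88 for Canx, -0.85 for Hsp90b1, -0.84 for Pdia3, -0.79 for Manf, -0.76 for Calr, -0.56 for Pdia4, -0.56 for Pdia6 and -0.56 for Eif2ak3. They were -0.42 for Dnajb11, -0.42 for Edem1 and -0.36 for Ssr1, and positive at 0.39 for Atf6, 0.43 for Sel1l, 0.43 for Atf4 and 1.18 for Herpud1.

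The response of female cultures differed between the genotype labels for 6 of the 38 genes, where 11.2% of all tested genes were called. Lman1, outside the 38, was called in the same edgeR test (log2 2.67, adjusted p = 0.0238). None of these 6 calls held under all 13 alternatives, and leaving out 1 library gave 0 to 5 calls. As labelled KO response minus WT response, the log2 values were -0.75 for Manf, -0.60 for Canx, -0.60 for Hsp90b1, -0.42 for Dnajb11, 0.42 for Atf6 and 0.61 for Herpud1. Both differences use the same 4 female WT libraries.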

How the results depend on the processing

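No called gene changed direction under any alternative run. In the HDM response of female WT cultures the count of 25 was 17 to 24 when 1 library was left out and 26 with DESeq2. In female labelled KO cultures the count of 5 was 10 with only the compared libraries and 1 to 2 when 1 library was left out. Between labelled KO and WT females after HDM it was 5 to 13 when 1 library was left out. In males after HDM, the 0 between labelled KO and WT became 2 with DESeq2 and 7 with no filter on low counts. For the sexes, the 0 in WT naive became 2 with DESeq2 and 4 with no filter, and the 0 in labelled KO naive became 2 with no filter. In WT HDM, 22 became 14 to 20 when 1 library was left out; in labelled KO HDM, 12 became 19 with only the compared libraries and 5 to 8 when 1 was left out. The interaction of HDM and sex gave 7 to 14 against 15 when 1 was left out. That of HDM and labelled genotype gave 14 with DESeq2, 12 with no filter, 12 with only the compared libraries, and 0 to 5 when 1 was left out. With DESeq2 the count between labelled KO and WT females after HDM was 22 against 16. The cause of these changes was not tested.

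With the replicate number as a block the counts were 24 in the female WT response, 4 in the female labelled KO response, 13 between female labels after HDM, 22 and 11 between the sexes after HDM, 19 and 4 in the interactions of HDM with sex and with label, and 0 elsewhere. Deviations of same-numbered libraries correlated at -0.29 to 0.61. The correlation was 0.61 in the male WT response, 0.514 between labels in naive males and 0.359 in the female WT response. It was -0.156 in the female labelled KO response and -0.29 between sexes in naive labelled KO. The number therefore went with shared deviations in some comparisons only. The intervals given above for male WT cultures come from the fit without this block. Crossing the numbers, chosen after seeing the data, gave 5, 13 and 0 calls in the female labelled KO response, between female labels after HDM and between sexes in naive labelled KO.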
